A study of Mus musculus with 11 samples.

Results

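The genes described here are 7 pumps and carriers that hold up the sodium, calcium and chloride gradients of brain cells: Atp1b1, Atp1b2, Atp2a2, Atp2b1, Atp2b2, Slc8a2 and Slc12a5. They are 7 of the 4338 genes in the table of ribosome footprints, were chosen by name as ion pump and exchanger genes, and each is read from the transcript that drew the most footprints in all. All 7 were present and all 7 passed the filter on low counts. No member differed between groups past an adjusted p of 0.05: 0 of 7 were called for ipsilateral against sham, ipsilateral against contralateral and contralateral against sham cortex, where 0.104%, 0.365% and 0% of all tested genes were called. The data give instead a graded set of levels, led by the sodium pump beta subunit Atp1b1, and an interval for how far each gene could differ 3 h after the stroke.

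The sodium pump (Na,K-ATPase) spends ATP to move sodium out of the cell and potassium in, and it is built from a catalytic alpha subunit and a beta subunit that carries the complex to the membrane. The gradients it makes drive other carriers. Sodium/calcium exchangers such as Slc8a2 use the sodium gradient to expel calcium. Slc12a5 uses the potassium gradient, and potassium leaving through it takes chloride out. Calcium is also pumped with ATP, outward across the plasma membrane by the Atp2b family and into the endoplasmic reticulum by Atp2a2. When blood flow stops, ATP falls, these pumps slow and the gradients run down, which is the textbook start of injury in ischemic brain.

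The cortex came from wildtype C57BL6 mice of 7 to 8 weeks in which a filament closed the middle cerebral artery on the right for 35 min, with tissue taken after 3 h of reperfusion. The occluded side (ipsilateral) gave 4 libraries, the opposite side (contralateral) of stroke animals gave 4, and sham animals, whose arteries were exposed under the same anesthesia with no filament put in, gave 3. The side of the sham cortex is not stated in the labels. The ipsilateral samples carry conflicting labels: titles and descriptions place them in the occluded hemisphere and the tissue entry in the contralateral one. The titles were followed. Replicate numbers mark days of surgery on different animals, so p-values measure the spread between animals of different days together with that of library preparation. Whether ipsilateral and contralateral libraries with the same number came from 1 animal is not stated.

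What was counted is the ribosome-protected fragment, the stretch of messenger RNA covered by a ribosome and so spared by nuclease, and no total RNA library was analysed here. A difference in footprints can therefore reflect more transcript or more translation of it, and in bulk tissue fewer cells of a type cannot be told apart from less RNA per cell. Library totals, with each gene counted once, ran from 35068 to 137341 in ipsilateral, from 137372 to 571351 in contralateral and from 64460 to 256657 in sham cortex. The ipsilateral libraries were the shallowest group, and no ipsilateral library was as deep as any contralateral one. Neuron markers were all in the table (16 of 16), which does not tell cortex from other brain tissue. They summed to 20476 to 23034 CPM in ipsilateral, 21130 to 23526 in contralateral and 22502 to 23451 in sham libraries. CPM are counts brought to a common library total with TMM factors. Of 9 markers of cortical neurons 8 were in the table. They summed to 1308 to 2041 CPM in ipsilateral, 1590 to 2034 in contralateral and 1864 to 2325 in sham libraries. Choroid plexus markers (0 of 5) were not in the table, but it holds no transcript with a summed count under 101, so low levels would not be seen. Markers of striatal neurons, 4 of 9 in the table without Drd1, Drd2 and Adora2a, summed to 234.7 to 739.8 CPM in ipsilateral, 244.7 to 761.2 CPM in contralateral and 566.5 to 942.4 CPM in sham libraries. Their median log2 difference was -0.69 for ipsilateral against sham and -0.95 for contralateral against sham, with 2 of 4 at an unadjusted p under 0.05 in each and 0 past the adjusted threshold (edgeR). Their part in the members' values was not tested.

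Both families with more than 1 member hold close relatives, so the sequences bear on whether a short footprint can be assigned. The aligned coding sequences of Atp1b1 and Atp1b2 were 66.3% identical over 806 bases, and those of Atp2b1 and Atp2b2 were 73.4% identical over 3587 bases. The windows shown are the 90-base coding stretches around the longest run that each pair shares without a mismatch, with that run in capitals. Positions are counted from the first base of the coding sequence of the mm10 transcript (GENCODE vM21), from 610 to 699 in Atp1b1, 568 to 657 in Atp1b2, 3034 to 3123 in Atp2b1 and 2968 to 3057 in Atp2b2.
Atp1b1: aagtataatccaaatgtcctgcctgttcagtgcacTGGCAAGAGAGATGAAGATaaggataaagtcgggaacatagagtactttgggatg
Atp1b2: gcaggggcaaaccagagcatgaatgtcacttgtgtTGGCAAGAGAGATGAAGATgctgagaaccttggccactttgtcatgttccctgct
Atp2b1: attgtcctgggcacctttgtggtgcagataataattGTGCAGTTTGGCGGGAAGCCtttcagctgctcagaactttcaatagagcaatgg
Atp2b2: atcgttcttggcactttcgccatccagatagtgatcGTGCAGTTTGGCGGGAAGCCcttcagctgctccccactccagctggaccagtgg
The shared runs are 19 bases in the beta subunits and 20 bases in the calcium pumps, both shorter than a 28-base word, a length close to that of a footprint. No 28-base word of the Atp1b1, Atp1b2 or Slc8a2 coding sequence occurs in another gene's transcripts, and 0.0301% of those of Slc12a5 and 0.813% of those of Atp2b2 do. Atp2a2 shares 9.21% of its words and Atp2b1 7.13%, in both cases mostly with a pseudogene, and 83 coding bases of Atp2a2 overlap an antisense gene. Their counts are uncertain, since the sources used here do not say how reads with several matches, or strand, were handled. Only exact matches to annotated transcripts were looked for, and a share of words is not a share of footprints. These percentages therefore do not bound the ambiguous reads of any member.

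Levels between genes were compared as CPM per kilobase of transcript. Atp1b1 was highest by this measure, at 1767 ± 206 (SD, n = 11 libraries), and its lowest library (1303) stood above the highest Atp2a2 library (799.6). Atp2a2 came next at 649 ± 73.2 and its range did not meet that of the gene after it. The other 5 genes followed as Atp1b2 (306 ± 47.9), Atp2b2 (271 ± 58.3), Slc12a5 (267 ± 30.8), Slc8a2 (217 ± 52.1) and Atp2b1 (202 ± 27.0), and neighbours among these 5 overlapped. On this scale the mean of Atp1b1 was 8.77 times that of Atp2b1.

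The order depends on what length is used, because footprints fall on coding sequence while the transcripts differ in their untranslated parts, and on which transcripts are read. With counts averaged over all transcripts of a gene in the table, per kilobase of the same transcript as before, Atp1b1 and Atp2a2 stayed first and second. Atp1b2 came to 195 ± 29.4 in rank 6 and Slc12a5 to 146 ± 16.9 in rank 7. Their averages take in short transcripts: 993 bases with 485 counts beside 1822 for Atp1b2, and 465 noncoding bases with 344 counts beside 3214 for Slc12a5. The full lengths of 2842 and 6028 bases were still divided by, so these 2 levels are lowered by the averaging. Per kilobase of coding sequence, Atp1b1 stayed first at 4999 ± 583 and Atp1b2 came second at 998 ± 156, overlapping Atp2a2 at 930 ± 105. Slc8a2 was last on this scale at 329 ± 79.2, and the mean of Atp1b1 was 12.7 times that of Atp2b1. For Atp2b2, 3 transcripts, of 4586, 7067 and 8877 bases, carried identical counts in all 11 libraries. The shortest holds 3729 coding bases and the longer ones 3594 each. Neither the extra bases of the longer ones nor the extra coding bases of the shortest added a count. These counts therefore do not decide which length is the better scale. Coding length is used below for the shares of relatives within a family, while the log2 ratios compare counts without a length.

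**Figure D1:**
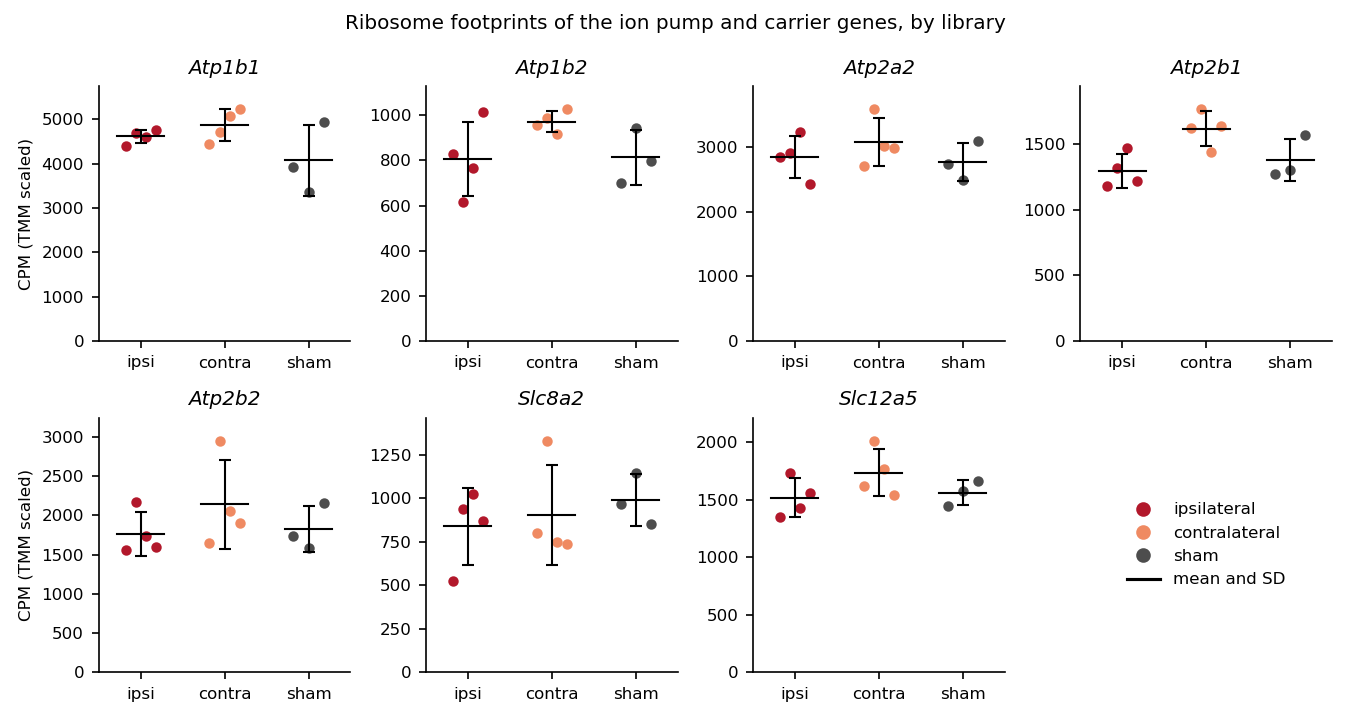
Each panel plots 1 gene, with CPM after TMM scaling on the vertical axis and a point for each ipsilateral (n = 4), contralateral (n = 4) and sham (n = 3) library, and horizontal lines and bars give the mean and SD. The points of the 3 groups overlap in every panel; Atp1b1 lies between 3361 and 5230 CPM, and Slc8a2 has 1 contralateral library at 1331 CPM above the other 3.

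The sodium pump is represented by 2 of its beta subunits. Atp1b1 (chr1:164437109-164458355, minus strand, mm10; coding length 912 bases) encodes the beta subunit found widely in neurons. It had 4409, 4693, 4602 and 4758 CPM in ipsilateral libraries, 4453, 4704, 5087 and 5230 CPM in contralateral libraries, and 3922, 3361 and 4935 CPM in sham libraries. The ipsilateral libraries lay close together, with a coefficient of variation of 3.29%, inside the sham range and overlapping the contralateral one, and the sham libraries were the most spread, at 19.6%. Counts were 160 to 590 in ipsilateral and 214 to 999 in sham libraries, and the difference in spread was not tested. Atp1b1 averaged 4615 ± 152 CPM in ipsilateral and 4073 ± 797 CPM in sham cortex, a log2 difference of 0.17 ± 0.14 (SE) with an adjusted p of 0.827 (edgeR quasi-likelihood, two-sided). The 95% interval of that difference ran from -6.78% to 36.6%. Against contralateral cortex, at 4869 ± 355 CPM, the ipsilateral log2 difference was -0.08 ± 0.13 (adjusted p 0.953, edgeR), with an interval from -20.6% to 12.8%.

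Atp1b2 (chr11:69599736-69605829, minus strand; coding length 870 bases) encodes the beta subunit also known as the adhesion molecule on glia, which astrocytes carry. Its ipsilateral libraries had 829.5, 616, 767 and 1015 CPM, its contralateral libraries 956.6, 986.6, 915.2 and 1027 CPM, and its sham libraries 698.9, 942.4 and 799.5 CPM. The contralateral libraries were tight (coefficient of variation 4.85%) and the ipsilateral ones were not (20.5%), and 1 ipsilateral library, replicate 6, stood among the contralateral values. Counts ran from 129 to 578 in contralateral and only from 21 to 118 in ipsilateral libraries, and this difference in spread was not tested. The lowest value, in ipsilateral replicate 4, rests on 21 counts. Astrocyte markers, 16 of 16 in the table, summed to 19409 to 21973 CPM in ipsilateral, 18532 to 24619 CPM in contralateral and 16699 to 21095 CPM in sham libraries, and their part in the Atp1b2 values was not tested. Atp1b2 averaged 807 ± 165 CPM in ipsilateral, 971 ± 47.1 CPM in contralateral and 814 ± 122 CPM in sham cortex. The log2 difference was 0.05 ± 0.17 for ipsilateral against sham (adjusted p 0.990, edgeR; interval -18.4% to 31.7%) and -0.23 ± 0.15 for ipsilateral against contralateral (adjusted p 0.747, edgeR; interval -31.3% to 5.86%).

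Per kilobase of coding sequence, Atp1b1 made up 81.3% ± 2.53 (SD, n = 11) of the beta footprints, Atp1b2 16.4% ± 2.71 and Atp1b3 2.32% ± 0.828. The Atp1b2 share was 15.0% ± 2.55 in ipsilateral, 17.0% ± 1.12 in contralateral and 17.3% ± 4.33 in sham cortex. Within a library, the log2 ratio of Atp1b2 to Atp1b1 counts averaged -2.53 ± 0.29 in ipsilateral, -2.32 ± 0.12 in contralateral and -2.31 ± 0.43 in sham cortex. This glial to neuronal contrast did not pass a test in any pair of groups: the exact two-sided permutation test gave p = 0.514 for ipsilateral against sham, 0.257 for ipsilateral against contralateral and 0.914 for contralateral against sham. The smallest p these sizes allow is 0.0286 for 4 against 4 libraries and 0.0571 for 4 against 3.

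**Figure D2:**
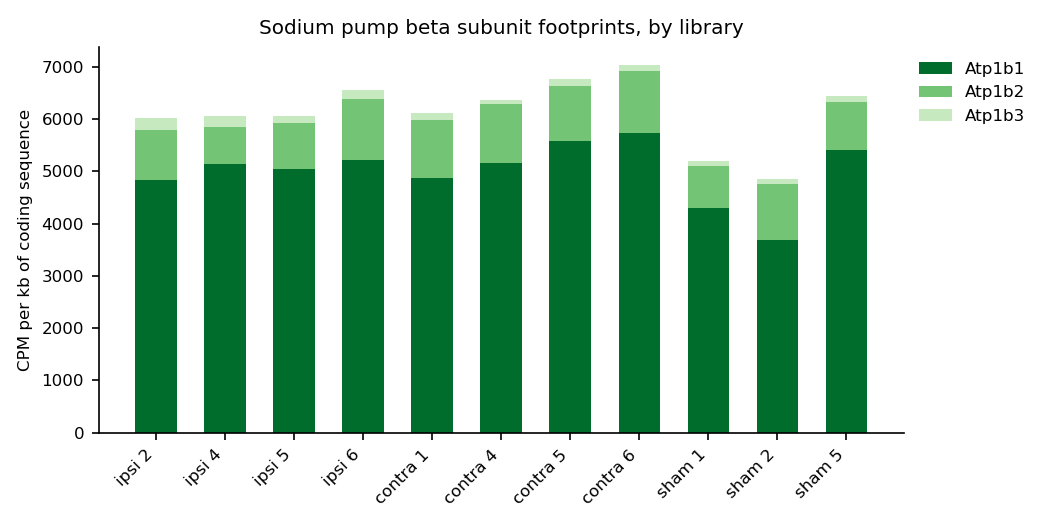
Stacked bars for each of the 11 libraries show the beta subunits of the sodium pump in CPM per kilobase of coding sequence. Atp1b1 (81.3% of beta on average) is the tallest block in every library, with Atp1b2 (16.4%) above it and Atp1b3 (2.32%) on top.

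Of 13 sodium pump partner genes, 3 were in the table and tested, and none rose or fell past the threshold in any comparison. The median log2 difference of these 3 was 0.50 for ipsilateral against sham, 0.67 for ipsilateral against contralateral and -0.04 for contralateral against sham. The first is the value of the alpha subunit Atp1a4 alone, at 0.50 ± 0.34 (adjusted p 0.782, edgeR). Against contralateral Atp1a4 was at 0.74 ± 0.30 (unadjusted p 0.0193, adjusted p 0.513, edgeR), with overlapping groups. It had only 8 to 20 counts in ipsilateral libraries. The minor beta subunit Atp1b3 had 201.8, 176, 111.3 and 154.9 CPM in ipsilateral libraries and 86.38, 78.53 and 95.31 CPM in sham libraries, with no overlap. Its log2 difference of 0.88 ± 0.31 had an unadjusted p of 0.00776 and an adjusted p of 0.381 (edgeR). Groups that do not overlap were found for 7.2% of all genes in that comparison. Contralateral libraries had 121.3, 61.18, 121.1 and 97.68 CPM of Atp1b3 and overlapped the ipsilateral ones. The ipsilateral log2 difference from contralateral was 0.67 ± 0.27 (unadjusted p 0.017, adjusted p 0.493, edgeR). Atp1b3 rests on 5 to 27 counts per library in ipsilateral and sham cortex and on 8 to 55 in contralateral cortex. Of its coding words, 51.3% occur in other genes, so both differences are uncertain.

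Atp2a2 (chr5:122456340-122502225, minus strand; coding length 3132 bases) encodes SERCA2, the pump that returns calcium to the endoplasmic reticulum. Ipsilateral libraries held 2840, 2904, 3229 and 2435 CPM, contralateral libraries 2715, 3587, 3011 and 2993 CPM, and sham libraries 2733, 2497 and 3087 CPM. The groups covered nearly the same range, with coefficients of variation of 11.4% in ipsilateral, 11.9% in contralateral and 10.7% in sham cortex. Atp2a2 averaged 2852 ± 326 CPM in ipsilateral, 3076 ± 366 CPM in contralateral and 2772 ± 297 CPM in sham cortex. Its log2 difference was 0.03 ± 0.14 for ipsilateral against sham (adjusted p 0.991, edgeR; interval -16.3% to 25.1%) and -0.11 ± 0.13 for ipsilateral against contralateral (adjusted p 0.915, edgeR; interval -23.0% to 11.4%).

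The table holds 3 transcripts of Atp2a2, and their counts did not separate the forms of SERCA2, which differ at the end of the protein. The transcript of the ubiquitous form, SERCA2b, had 145 more counts over all libraries than a coding transcript that lacks its tail, 5913 against 5768. A transcript annotated for nonsense-mediated decay holds all 149 bases of that coding tail but had the counts of the shorter coding form in every library. The 145 counts are therefore not tied to the tail, and no level is given for either form.

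Calcium export across the plasma membrane is represented by Atp2b1 and Atp2b2. Atp2b1 (chr10:98915152-99026143, plus strand; coding length 3660 bases) encodes PMCA1, the widely expressed form. It had 1181, 1320, 1472 and 1222 CPM in ipsilateral, 1624, 1767, 1443 and 1636 CPM in contralateral, and 1276, 1304 and 1567 CPM in sham libraries. Only ipsilateral replicate 5 and contralateral replicate 5 kept the 2 hemispheres from separating, at 1472 against 1443 CPM. Means were 1299 ± 130 CPM in ipsilateral, 1617 ± 133 CPM in contralateral and 1382 ± 161 CPM in sham cortex. Atp2b1 had the smallest p of the members: its log2 difference between ipsilateral and contralateral cortex was -0.32 ± 0.14, with an unadjusted p of 0.0290 and an adjusted p of 0.569 (edgeR). The unadjusted interval ran from -34.3% to -2.36%. An unadjusted p under 0.05 was reached by 7.61% of all genes in this comparison, so 1 of 7 members there is not a result about the members. Against sham the log2 difference was -0.10 ± 0.15 (adjusted p 0.935, edgeR; interval -24.9% to 15.8%).

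Atp2b2 (chr6:113745669-113891539, minus strand; coding length 3594 bases) encodes PMCA2, a fast form that in brain is largely neuronal. Ipsilateral libraries had 1562, 2171, 1732 and 1592 CPM, contralateral libraries 1650, 2952, 2056 and 1904 CPM, and sham libraries 1732, 1586 and 2160 CPM. Contralateral replicate 4 stood high, and so did its same-day ipsilateral library within its own group. Atp2b2 averaged 1764 ± 281 CPM in ipsilateral, 2141 ± 566 CPM in contralateral and 1826 ± 298 CPM in sham cortex. The log2 difference was -0.30 ± 0.16 for ipsilateral against contralateral (unadjusted p 0.0681, adjusted p 0.680, edgeR; interval -34.7% to 1.61%) and -0.08 ± 0.17 for ipsilateral against sham (adjusted p 0.968, edgeR; interval -25.6% to 20.3%). Without contralateral replicate 4 the ipsilateral difference from contralateral was -0.12.

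Among the 4 plasma membrane calcium pumps, Atp2b2 held 43.0% ± 3.62 of the footprints per coding kilobase, Atp2b1 32.0% ± 2.62, Atp2b4 15.7% ± 2.65 and the neuronal Atp2b3 9.26% ± 1.39. The log2 ratio of Atp2b2 to Atp2b1 counts was 0.43 ± 0.20 in ipsilateral, 0.37 ± 0.32 in contralateral and 0.39 ± 0.10 in sham cortex. It ran from 0.02 to 0.74 among contralateral libraries alone, and the exact two-sided permutation test gave p = 0.914 for ipsilateral against sham and 0.743 for ipsilateral against contralateral. The ratio of the reticulum pump Atp2a2 to the 2 membrane pumps was -0.10 ± 0.16 on the log2 scale in ipsilateral, -0.28 ± 0.08 in contralateral and -0.21 ± 0.07 in sham cortex. Ipsilateral replicates 2 and 5, at 0.05 and 0.01, lay above every contralateral and sham library, and replicates 4 and 6, at -0.26 and -0.21, lay among them. The exact two-sided permutation test gave p = 0.114 for ipsilateral against contralateral (0.686 adjusted over 12 ratio tests) and p = 0.343 for ipsilateral against sham.

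Slc8a2 (chr7:16130348-16160513, plus strand; coding length 2745 bases) encodes NCX2, a sodium/calcium exchanger of brain. It was the most variable member, with a coefficient of variation of 24.0% over 11 libraries. Ipsilateral libraries had 523.1, 938.7, 1027 and 868.9 CPM, contralateral libraries 801.6, 1331, 750.3 and 737.1 CPM, and sham libraries 965.9, 1147 and 852.5 CPM. The lowest value was in ipsilateral replicate 2 and the highest in contralateral replicate 4, and without those 2 libraries the rest lay within 737.1 to 1147 CPM. Slc8a2 averaged 839 ± 221 CPM in ipsilateral, 905 ± 285 CPM in contralateral and 988 ± 148 CPM in sham cortex. Its log2 difference was -0.25 ± 0.22 for ipsilateral against sham (adjusted p 0.854, edgeR; interval -38.4% to 14.9%) and -0.12 ± 0.20 for ipsilateral against contralateral (adjusted p 0.958, edgeR; interval -30.9% to 22.5%). The first of these was -0.05 without ipsilateral replicate 2. The second turned to 0.09 without contralateral replicate 4 and to 0.06 without ipsilateral replicate 2.

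Slc8a2 supplied 58.3% ± 6.26 of the exchanger footprints per coding kilobase and Slc8a1, the exchanger best known from heart and also present in brain, 41.7% ± 6.26. The Slc8a2 share was 55.5% ± 6.97 in ipsilateral, 56.8% ± 4.60 in contralateral and 63.9% ± 4.95 in sham cortex. Slc8a1 itself averaged 693 ± 78.5 CPM in ipsilateral and 587 ± 47.2 CPM in sham cortex, a log2 difference of 0.23 ± 0.18 (adjusted p 0.824, edgeR).

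Of 22 other genes of calcium transport, 12 were tested, and none rose or fell past the threshold in any comparison. Their median log2 difference was 0.01 for ipsilateral against sham, -0.20 for ipsilateral against contralateral and 0.18 for contralateral against sham, beside medians of -0.001, 0.01 and -0.004 over all tested genes. Letm1, a mitochondrial inner membrane protein linked to cation exchange, had the smallest p against sham, with 148 ± 59.7 CPM in ipsilateral and 111 ± 33.7 CPM in sham cortex and a log2 difference of 0.70 ± 0.31 (adjusted p 0.571, edgeR). The Golgi calcium pump Atp2c1 had a log2 difference of -0.50 ± 0.25 between ipsilateral and contralateral cortex (adjusted p 0.636, edgeR) and of 0.53 ± 0.24 between contralateral and sham cortex (adjusted p 0.862, edgeR). Both comparisons use the same contralateral libraries. Slc24a4, a potassium-dependent sodium/calcium exchanger, was at -0.75 ± 0.40 for ipsilateral against contralateral (adjusted p 0.680, edgeR). These values rest on few counts: 4, 6, 7 and 3 for Slc24a4 in ipsilateral libraries, and 2 for Letm1 and 4 for Atp2c1 in ipsilateral replicate 4.

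Slc12a5 (chr2:164967983-164999731, plus strand; coding length 3345 bases) encodes KCC2, the neuron-specific potassium-chloride cotransporter that keeps chloride low so that GABA inhibits. It had 1345, 1731, 1423 and 1557 CPM in ipsilateral, 1617, 2011, 1766 and 1543 CPM in contralateral, and 1445, 1571 and 1663 CPM in sham libraries. The groups overlapped throughout. Means were 1514 ± 169 CPM in ipsilateral, 1735 ± 207 CPM in contralateral and 1559 ± 109 CPM in sham cortex. The log2 difference was -0.06 ± 0.15 for ipsilateral against sham (adjusted p 0.984, edgeR; interval -22.4% to 19.3%) and -0.21 ± 0.14 for ipsilateral against contralateral (adjusted p 0.753, edgeR; interval -28.8% to 5.51%).

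Slc12a5 is set against Slc12a2, which encodes NKCC1, the carrier that loads chloride into cells and in adult brain is found in glia as well as neurons. The log2 ratio of Slc12a5 to Slc12a2 counts was 2.52, 3.43, 3.46 and 2.48 in ipsilateral libraries, 3.62, 3.68, 4.55 and 3.69 in contralateral libraries, and 3.42, 3.40 and 5.05 in sham libraries. Every ipsilateral library lay below every contralateral one, and ipsilateral and sham libraries overlapped. The ipsilateral mean of 2.97 ± 0.55 was lower than the contralateral mean of 3.89 ± 0.44 by a difference of -0.91. The exact two-sided permutation test gave p = 0.0286, the smallest p possible with 4 against 4 libraries, and 0.343 after adjustment over the 12 ratio tests. Leaving out any 1 of these 8 libraries gave differences from -1.07 to -0.69 and a p of 0.0571, again the smallest possible. Within days 4, 5 and 6 the mean difference was -0.85 (exact p 0.25, the smallest for 3 pairs). Against the sham mean of 3.96 ± 0.95 the difference was -0.98 (p = 0.343, exact permutation). Without sham replicate 5, where Slc12a2 had 9 counts, it was -0.44, and leaving out each of the others in turn gave values down to -1.26.

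Of the 2 genes in this ratio, Slc12a2 had the larger log2 differences in both ipsilateral comparisons, and for contralateral against sham both genes were at 0.15. Slc12a2 had 231.7, 146.7, 123.7 and 275.3 CPM in ipsilateral, 128, 153, 74.02 and 119 CPM in contralateral, and 133.5, 141.4 and 47.65 CPM in sham libraries. Ipsilateral replicates 2 and 6 stood above all contralateral and sham libraries, and replicates 4 and 5 lay among them. Its log2 difference was 1.03 ± 0.33 for ipsilateral against sham (unadjusted p 0.00365, adjusted p 0.311, edgeR) and 0.88 ± 0.29 for ipsilateral against contralateral (unadjusted p 0.00382, adjusted p 0.257, edgeR). Without sham replicate 5 the first of these was 0.62 (adjusted p 0.732, edgeR), and without the other libraries in turn it reached 1.48. These values rest on 5 to 32 counts in ipsilateral libraries, and the difference did not pass the threshold over all genes. Summed oligodendrocyte markers, 8 of 11 in the table, were 3142 to 7196 CPM in ipsilateral, 2350 to 3350 CPM in contralateral and 2377 to 3000 CPM in sham libraries, and 4 of these 8 rose past the threshold between ipsilateral and contralateral cortex. Microglia markers, 8 of 10 in the table without Tmem119 and Aif1, summed to 1559 to 2073 CPM in ipsilateral, 1219 to 1445 CPM in contralateral and 911 to 1202 CPM in sham libraries. Blood markers, 4 hemoglobin genes of 6 listed, summed to 1041 to 2024 CPM in ipsilateral, 566 to 989 CPM in contralateral and 895 to 1324 CPM in sham libraries. The ipsilateral and contralateral sums did not overlap. Past the threshold, 2 of these 4 genes were higher in ipsilateral than in contralateral cortex, where 0.365% of all tested genes were called. Against sham, their median log2 difference was 0.25 in ipsilateral and -0.71 in contralateral cortex. An unadjusted p under 0.05 (edgeR) was reached by 0 of 4 and 4 of 4, beside 7.74% and 5.66% of all genes, and none was called. The part of these cell types in the Slc12a2 values was not tested.

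Of 16 partner genes of cation-chloride transport, 6 were tested and none rose or fell past the threshold in any comparison, with a median log2 difference of 0.39 for ipsilateral against sham, 0.15 for ipsilateral against contralateral and 0.08 for contralateral against sham. Stk39, the kinase SPAK that phosphorylates both carriers, had 52.31, 58.67, 24.74 and 60.22 CPM in ipsilateral and 87.57, 84.13, 87.48 and 83.47 CPM in contralateral libraries, with no overlap. Its log2 difference was -0.79 ± 0.37 (unadjusted p 0.0383, adjusted p 0.598, edgeR), and the 4 ipsilateral values rest on 7, 2, 2 and 7 counts. Groups without overlap were found for 4.41% of all genes in this comparison. Sham libraries had 113.9, 31.41 and 79.42 CPM of Stk39 and overlapped the ipsilateral ones. The ipsilateral log2 difference from sham was -0.83 ± 0.40 (unadjusted p 0.0452, adjusted p 0.635, edgeR). Between contralateral and sham cortex the smallest p values in this list belonged to Wnk2, a kinase upstream of SPAK, at -0.39 ± 0.25, and Clcn3, a chloride/proton exchanger of endosomes, at 0.21 ± 0.22 (adjusted p 0.943 and 0.964, edgeR). Of 14 proton and bicarbonate exchangers and carbonic anhydrases, which share the sodium gradient or the pH it sets, 7 were tested and none changed past the threshold, with a median log2 difference of 0.11 for ipsilateral against sham, 0.08 for ipsilateral against contralateral and 0.05 for contralateral against sham. Log2 differences among these genes were, for Slc4a8, 0.31 ± 0.28 for ipsilateral against sham, for Slc9a7, 0.31 ± 0.27 for ipsilateral against contralateral, and, for Slc4a10 and Car2, 0.25 ± 0.18 and -0.13 ± 0.23 for contralateral against sham.

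**Figure D3:**
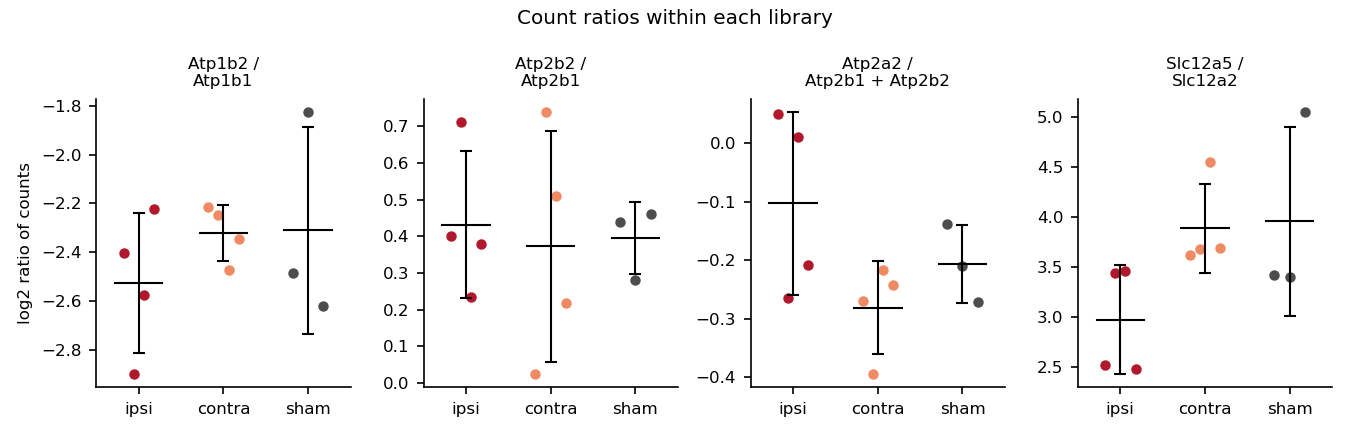
Log2 ratios of counts within each library are plotted for 4 pairs of genes, with 1 point per library in ipsilateral (n = 4), contralateral (n = 4) and sham (n = 3) cortex and the mean and SD as lines. Ipsilateral and contralateral points separate only for Slc12a5 over Slc12a2, where the ipsilateral libraries reach 3.46 at most and the contralateral ones start at 3.62.

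Set side by side, none of the 7 members was among the called genes in any of the 3 comparisons, each over 3835 tested genes. For contralateral against sham edgeR called 0 genes, 217 had an unadjusted p under 0.05, DESeq2 called 2 and limma-voom called 0. With so few genes called in all, the absence of a call among 7 members is near the background and says little about them. An unadjusted p under 0.05 was reached by 0 of 7 members for ipsilateral against sham, 1 of 7 for ipsilateral against contralateral and 0 of 7 for contralateral against sham, where 7.74%, 7.61% and 5.66% of all genes reached it. The CPM of the groups overlapped for all 7 members in each comparison. Among all genes they did not overlap for 7.2% in ipsilateral against sham, 4.41% in ipsilateral against contralateral and 7.69% in contralateral against sham.

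For ipsilateral against contralateral, all 7 log2 differences were below 0, with a median of -0.21 and a range from -0.32 for Atp2b1 to -0.08 for Atp1b1. Over all tested genes the median was 0.01 and 1863 of 3835 were below 0. For ipsilateral against sham, 3 were above 0 and 4 below, with a median of -0.06; without sham replicate 5, the highest of its group for 5 of 7 members, 5 were above 0 and 2 below. For contralateral against sham, 6 were above 0 and 1 below, with a median of 0.22; the largest were Atp1b2 at 0.28 ± 0.16 (adjusted p 0.937, edgeR) and Atp1b1 at 0.25 ± 0.13 (adjusted p 0.907, edgeR), and Slc8a2 was at -0.13 ± 0.21. Atp2b1, Atp2b2, Slc12a5 and Atp2a2 were at 0.22, 0.22, 0.15 and 0.14 (adjusted p 0.943, 0.950, 0.964 and 0.964, edgeR). The 3 comparisons share libraries, so a high contralateral level lowers 1 of them and raises another. Contralateral replicate 4 was the highest of its group for 5 of 7 members and ipsilateral replicate 2 the lowest of its group for 5 of 7; without either of them, 6 of 7 differences between ipsilateral and contralateral cortex were below 0. The median without contralateral replicate 4 was -0.12. For contralateral against sham the median without that library was 0.09, with Atp2b2 at 0.04, and it was 0.11 with the replicate block.

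**Figure D4:**
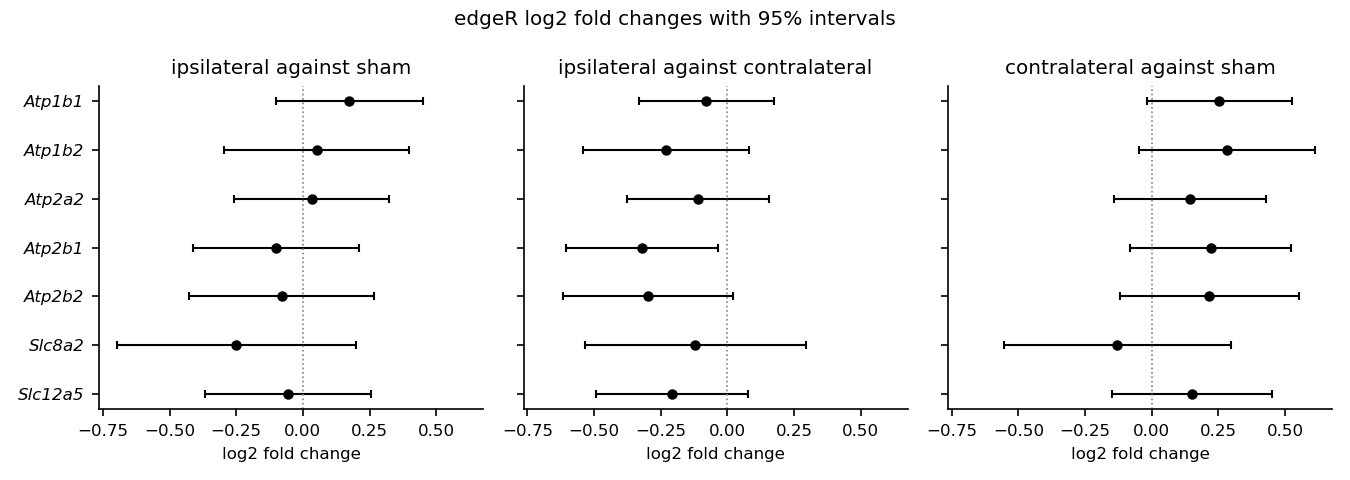
Points are edgeR log2 fold changes of the 7 members in 3 comparisons (ipsilateral against sham, ipsilateral against contralateral, contralateral against sham), with 95% intervals not adjusted for the number of genes. Only the interval of Atp2b1 between ipsilateral and contralateral cortex leaves out 0, and the 7 points of that panel lie between -0.32 and -0.08.

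Days 4, 5 and 6 each had an ipsilateral and a contralateral library, which allows the difference to be read within a day. Atp2b2 was lower on the ipsilateral side on all 3 days, by log2 differences of -0.44, -0.25 and -0.26. Atp1b2 was also lower on each day but unevenly, at -0.67, -0.25 and -0.02, and Atp1b1 gave -0.003, -0.14 and -0.14. Atp2b1 gave -0.42, 0.03 and -0.42, Atp2a2 -0.30, 0.10 and -0.30, and Slc12a5 -0.22, -0.31 and 0.01. Slc8a2 went in both directions, at -0.50, 0.45 and 0.23. With 3 pairs an exact two-sided test cannot give a p below 0.25, so these are descriptions.

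The members varied together to different degrees over the 11 libraries. Genes of 1 library share its depth and scaling, but library totals ran from 35068 to 571351, so counting noise was unequal between libraries. Pearson r of log2 CPM was highest between Atp2b2 and Slc12a5, both largely neuronal, at 0.85, followed by Atp2a2 with Atp2b2 at 0.80 and Atp2a2 with Atp2b1 at 0.69. The beta subunits were nearly unrelated to each other (r = 0.13), and the lowest value was between Atp1b1 and Slc8a2 (r = -0.33). Among 2398 genes with a mean of at least 100 CPM, the genes close to Atp2b2 included Sorl1 (r = 0.90) and Slc12a5 (0.85). Those most like Atp1b1 were Hsp90b1 (0.90), B2m (0.85) and Syt1 (0.85), and those most like Atp1b2 were Lpgat1 (0.86), Ggnbp2 (0.83) and Gdpd1 (0.83). The genes named for Atp1b2 averaged only 100.3, 119.1 and 107.3 CPM, and 2 counts in ipsilateral replicate 4 equal 58.67 CPM. Sv2b, Lamp5 and Syt11 (0.89, 0.89 and 0.87) were closest to Atp2a2, and Atp8a1, Lamp5 and Syt5 (0.91, 0.89 and 0.88) to Atp2b1. Slc8a2 was most like Ptprn (0.90), Slc30a3 (0.89) and Nptxr (0.88), and Slc12a5 was most like Atp2b2 (0.85), Clstn1 (0.80) and Tfrc (0.79). All these genes were picked for the highest r among 2398 over only 11 libraries. High values arise from such a choice even among unrelated genes, and they were not tested.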

How the data were processed

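The deposited table holds whole-number counts of ribosome footprints per Ensembl transcript, made by the authors, with 1 column for each of 11 libraries. Per the labels' protocols, protected fragments came from purified monosomes and libraries from a small RNA kit. Bowtie2, edgeR and mm10 are named without versions in the submitters' processing notes; for counting rules, strand use and annotation release: not given in the sources used here. Of 9784 transcripts (summed counts of at least 101), 9736 matched GENCODE vM21 by identifier; the other 48 (0.306% of counts) were left out of totals and tests. Because isoforms repeat the same reads (2219 transcripts repeated another of their gene), 1 transcript stood for each of the 4338 genes, the one with the largest total over all libraries.

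Tests across genes used edgeR (4.0.16; R 4.3.3) after filterByExpr with a minimum count of 10 (3835 genes kept, 503 removed), with TMM factors and robust quasi-likelihood fits of all 11 libraries without a block (common dispersion 0.0291, biological coefficient of variation 0.171). Tests are two-sided, adjusted by Benjamini-Hochberg over all tested genes, with a threshold of 0.05. CPM are counts over the TMM-scaled library total, on a common scale. Ratios had 0.5 added to each count and were compared by exact permutation in SciPy 1.17.1, adjusted over 12 tests. The scripts were tested on simulated counts. Shallow libraries limit precision: intervals are the 95% limits of the fit, and a count of 0 still allows 3 counts.

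Named genes are all members, fixed relatives in each family, the 2 partner genes of smallest p per list and comparison, and the 3 genes most correlated with each member. Where a gene outside this rule is named, it was chosen after its values were seen. Some genes of these lists are not reported here and were left out of the counts and medians of the lists. The members, lists and tests were chosen with earlier results of these data known. Same replicate numbers mark the same day of surgery, per the submitters' design text. Deviations from group means were compared across genes and correlated at r from -0.139 to 0.224 (median 0.131) for the 7 same-number pairs, and from -0.255 to 0.259 (median -0.03) for the 33 others. Alternatives were DESeq2 1.42.0, limma-voom (limma 3.58.1), other scalings and filters, the replicate block, and leaving out libraries.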

Additional observations from a re-analysis of the deposited data

Results flagged for a closer look

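Values far from the rest of their group were looked for in 22 groups of 4 libraries, by whether the gap of the highest or lowest library to its neighbour exceeded 0.829 of the group's range. Chance alone gives such a gap in about 1 in 20 groups, and 2 were found. Slc8a2, the sodium/calcium exchanger, stood at 1331 CPM in contralateral replicate 4, against 737.1 to 801.6 CPM in the other contralateral libraries. The log2 ratio of Slc12a5 to Slc12a2 was 4.546 in contralateral replicate 5, against 3.62 to 3.69 in the others, with 525 counts for Slc12a5 and 22 for Slc12a2. Without that library the ipsilateral difference from contralateral in this ratio was -0.69.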

How the results depend on the processing

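No member was called in any of 23 settings; the lowest adjusted p of a member was 0.354 when leaving out 1 library and 0.422 otherwise (edgeR, DESeq2 or limma). Genes called ran from 0 to 22 for ipsilateral against sham (0 without sham replicate 1, 2 without sham replicate 5, 22 without ipsilateral replicate 5), from 4 to 26 for ipsilateral against contralateral (5, 9 and 4 without contralateral replicates 1, 4 and 6; 6, 9 and 26 without ipsilateral replicates 2, 4 and 5) and from 0 to 3 for contralateral against sham (3 without sham replicate 5, 1 without ipsilateral replicate 6). Ipsilateral against contralateral gave 8 with a minimum count of 30, 8 without robust fits and 7 without the 2 shallowest libraries; DESeq2 gave 2 for contralateral against sham. With the replicate block, 3, 11 and 0 genes were called, and the block turned Atp1b2 (-0.038) and Atp2a2 (-0.0045) in ipsilateral against sham and Atp2b3 in contralateral against sham (-0.068); it changed no call of a member or partner gene. Blocked log2 ratios turned for Atp1b2 over Atp1b1 in contralateral against sham (0.21) and for Atp2b2 over Atp2b1 in ipsilateral against sham (-0.054) and contralateral (-0.048); Slc12a5 over Slc12a2 between hemispheres was -0.85, where 3 pairs cannot reach the threshold. Without the 2 shallowest libraries it was -1.07, and Atp2a2 in ipsilateral against sham (-0.046), Atp1b2 over Atp1b1 against sham (ipsilateral 0.15, contralateral 0.23) and Atp2b2 over Atp2b1 (ipsilateral -0.11 against sham, -0.034 against contralateral) turned. Leaving out 1 library moved these differences through 0. For ipsilateral against sham the ranges were -0.073 to 0.14 for Atp1b2, -0.039 to 0.12 for Atp2a2, -0.17 to 0.0061 for Atp2b1, -0.18 to 0.063 for Atp2b2, -0.14 to 0.073 for Atp2b4, -0.37 to 0.028 for Atp1b2 over Atp1b1 and -0.056 to 0.10 for Atp2b2 over Atp2b1. Between hemispheres they were -0.25 to 0.095 for Slc8a2, -0.12 to 0.039 for Slc8a1, -0.057 to 0.18 for Atp2b2 over Atp2b1 and, without a change of sign, -1.07 to -0.69 for Slc12a5 over Slc12a2. For contralateral against sham they were -0.064 to 0.14 for Atp2b3, -0.31 to 0.0022 for Car2, -0.25 to 0.62 for Slc12a2, -0.17 to 0.23 for Atp1b2 over Atp1b1, -0.14 to 0.095 for Atp2b2 over Atp2b1 and -0.35 to 0.48 for Slc12a5 over Slc12a2. Atp1b1 over Atp2b1 was 12.7 per coding length. The cause of these shifts was not tested. Of 231 member differences, 223 kept direction and side of the threshold when leaving out 1 library and 228 under the other settings. The 231 for leaving out 1 library include fits without a library of the group not compared, which could change little. The smallest adjusted p of a member in the main fit was 0.569 (edgeR), so a change of side was unlikely from the start.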
